A study of Mus musculus with 16 samples.

Results

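The Reg family comprises small secreted C-type lectins that the pancreas and gut make under stress. The 7 genes described here are Reg1, Reg2, Reg3a, Reg3b, Reg3d, Reg3g and Reg4. They were chosen as the genes carrying these names among the 55738 features of the untreated table and the 56980 features of the IFNγ table, and all 7 were found in each. The family was chosen by its measured differences between the genotypes in these same libraries, so the levels and fold changes of the members are given as a description, without a test.

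Reg1 and Reg2 encode the pancreatic stone proteins of acinar cells. Reg3a, Reg3b and Reg3g encode pancreatitis-associated proteins, of which Reg3b and Reg3g are also antimicrobial lectins of the intestine. Reg3d is a further Reg3 gene. Reg4 is mainly a gene of the gut epithelium. Healthy acinar cells make little Reg3 protein, and inflammation or injury raises it, a response driven largely by cytokines of the IL-6 and IL-22 groups acting through the transcription factor STAT3.

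The cells were KPC1199, a murine pancreatic ductal adenocarcinoma line from tumours that carry Pdx-cre and a mutant Trp53 allele, shared by all groups. They had received Cas9 with a control guide (sgCtrL, labelled WT) or with the guide Sin3Bsg1 against Sin3b, a corepressor that works with histone deacetylases. RNA-seq was run on 16 libraries in 2 experiments. The first held untreated sgCtrL and Sin3Bsg1 cells (n = 2 each), and the second held both genotypes without IFNγ and with IFNγ at 10 ng/ml for 24 h (n = 3 each). Sin3Bsg1 is 1 guide, whether the cells were a pool or a clone is not given in the sources used here, and the labels do not say that replicates came from separate cultures. The SDs and p-values therefore measure the spread between these libraries, which may be technical.

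On the mouse genome, 6 of the 7 members form a single cluster on chromosome 6 that spans 98.22 kb (GRCm39, 78347640 to 78445859) and contains no other annotated gene. Reg3b opens the cluster on the plus strand (78347640 to 78350455), followed by Reg3d on the minus strand (78352857 to 78355848) and Reg3a on the plus strand (78357692 to 78360810). Reg2 (78372606 to 78385089) and Reg1 (78399694 to 78405828) come next on the plus strand. Reg3g closes the cluster on the minus strand (78443246 to 78445859), so Reg3b and Reg3g sit at its opposite ends. Reg4 lies apart on chromosome 3 (98129468 to 98144066, plus strand).

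The sequence just upstream of the start site is shown for the 4 members that passed the filter on low counts in at least 1 experiment, 250 bases each, from RefSeq (GRCm38.p6). Capitals mark matches on either strand to TTCNNNGAA, the core that STAT proteins bind, to TGANTCA, the AP-1 core, and to TATAAA, the TATA box.
Reg3b, chr6:78370635-78370884, plus strand: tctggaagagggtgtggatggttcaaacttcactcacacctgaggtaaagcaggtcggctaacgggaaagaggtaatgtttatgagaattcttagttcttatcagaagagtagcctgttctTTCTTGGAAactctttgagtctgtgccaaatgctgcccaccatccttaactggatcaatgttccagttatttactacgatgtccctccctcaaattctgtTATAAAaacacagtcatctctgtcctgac
Reg3g, chr6:78468875-78469124, minus strand: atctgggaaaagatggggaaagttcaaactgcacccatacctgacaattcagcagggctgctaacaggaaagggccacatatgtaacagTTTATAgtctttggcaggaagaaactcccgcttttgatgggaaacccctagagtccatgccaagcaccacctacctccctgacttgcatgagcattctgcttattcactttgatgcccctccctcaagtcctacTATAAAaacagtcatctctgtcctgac
Reg1, chr6:78425733-78425982, plus strand: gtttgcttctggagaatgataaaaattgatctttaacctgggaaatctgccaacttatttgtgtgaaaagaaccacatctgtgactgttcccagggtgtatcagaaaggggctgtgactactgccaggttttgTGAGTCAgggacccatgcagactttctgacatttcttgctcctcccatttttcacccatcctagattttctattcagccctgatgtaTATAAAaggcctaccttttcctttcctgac
Reg2, chr6:78404905-78405154, plus strand: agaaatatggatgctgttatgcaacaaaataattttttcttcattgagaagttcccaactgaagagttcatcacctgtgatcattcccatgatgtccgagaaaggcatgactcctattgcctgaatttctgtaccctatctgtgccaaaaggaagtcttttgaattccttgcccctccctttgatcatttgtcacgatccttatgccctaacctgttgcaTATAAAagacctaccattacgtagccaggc
All 4 windows held TATAAA near the start site, at 29 bases before it in Reg3b, 27 in Reg3g and 30 in Reg1 and Reg2, and Reg3g held a second match on the other strand at 161. Of 32851 RefSeq upstream windows of the same length, 12.4% held TATAAA anywhere. Reg3b held the STAT core at 129 bases before the start (7.02% of all windows), and Reg1 held the AP-1 core at 117 (6.75%). The Reg3g, Reg1 and Reg2 windows had no match to the STAT core as spelled here, and the Reg3d window had a match at 238. Matches are descriptions of these letters only. Reg3b and Reg3g ended in the same 20 bases directly before the start site, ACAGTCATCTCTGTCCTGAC, a run found in only these 2 of the 32851 windows.

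Paralogs can exchange reads, so the GENCODE vM39 transcripts of the members were compared. Reg3b and Reg3g were identical at 70.4% of aligned positions, with a longest shared run of 35 bases, and Reg1 and Reg2 were identical at 77.0%, with a longest shared run of 19 bases. No stretch of 50, 75 or 100 bases of any Reg transcript occurred in a transcript of another gene. The deposited values were whole numbers for 6 members in every library, while Reg2 had fractional values in all 16 libraries, from 2.13 to 31.15. How a fractional count arose is not given in the sources used here.

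The 4 untreated libraries held 29683181 to 32311721 estimated counts, and the 12 others held 18128055 to 27056903. Sin3b RNA was lower in every Sin3Bsg1 library, at 33.6 to 39.4 CPM (counts relative to the library size, which was scaled by the trimmed mean of M-values), than in every sgCtrL library, at 80.3 to 95.5 CPM. Irf1, a transcription factor of the interferon response, rose with IFNγ by 3.51 ± 0.04 (log2, SE) in sgCtrL and 3.57 ± 0.04 in Sin3Bsg1 cells (edgeR quasi-likelihood test, adjusted p = 1.68e-18 and 1.3e-18). All 14 listed IFNγ response genes rose with IFNγ in each genotype, beside 15.7% of all genes in sgCtrL and 16.1% in Sin3Bsg1 cells. The sgCtrL library with IFNγ numbered 1 stood apart: its median absolute log2 difference from the other libraries of its group was 0.187 and 0.185, against 0.0747 to 0.129 between all other replicate pairs. Most member values that rest on it are given with and without it. Among 133 log2 values of members and named genes, leaving it out shifted none by more than 0.406. Among the named genes outside the family it ended 1 call, that of Mafa with IFNγ. Whether calls of members held without it was not examined.

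The labelled cell type, a pancreatic tumour line, was checked against marker genes. Ductal and epithelial genes were abundant, with 13 of 14 markers above 3 counts in some library of the untreated experiment and 14 of 14 in the IFNγ experiment, and summed levels of 3366 to 6808 CPM. Acinar markers, the genes of the cell that normally makes Reg proteins, were nearly silent. In each experiment 12 of 22 were at 0 in every library, among them Cpa1, Prss1 and Ptf1a, and the 22 together came to 5.51 to 13.6 CPM. Islet markers summed to 0.826 to 2.67 CPM and immune markers to 4.42 to 7.20 CPM, with Ins1, Ins2, Gcg, Adgre1 and Cd3e at 0 in all 16 libraries. Fibroblast markers summed to 174 to 358 CPM. Postn and C7 were at 0 in all libraries. In the untreated experiment the fibroblast sum was 329 to 331 CPM in sgCtrL and 174 to 177 CPM in Sin3Bsg1 cells, and the ductal sum was 5036 to 5060 and 6768 to 6808 CPM. With IFNγ the fibroblast sum was 253 to 273 CPM, against 332 to 358 CPM without. The part of these shifts in the Reg results was not tested.

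Of the 7 members, Reg3b and Reg3g carried almost all Reg reads, and both were far higher in Sin3Bsg1 than in sgCtrL cells in all 3 settings. Reg1 had few counts and was higher in Sin3Bsg1 cells in both settings without IFNγ, Reg2 overlapped between the genotypes, and Reg3a, Reg3d and Reg4 were close to or at 0. The 4 Reg3 genes made up 87.7% to 99.3% of the Reg counts of a library. In these bulk libraries, more cells with Reg RNA and more Reg RNA per cell cannot be told apart.

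**Figure D1:**
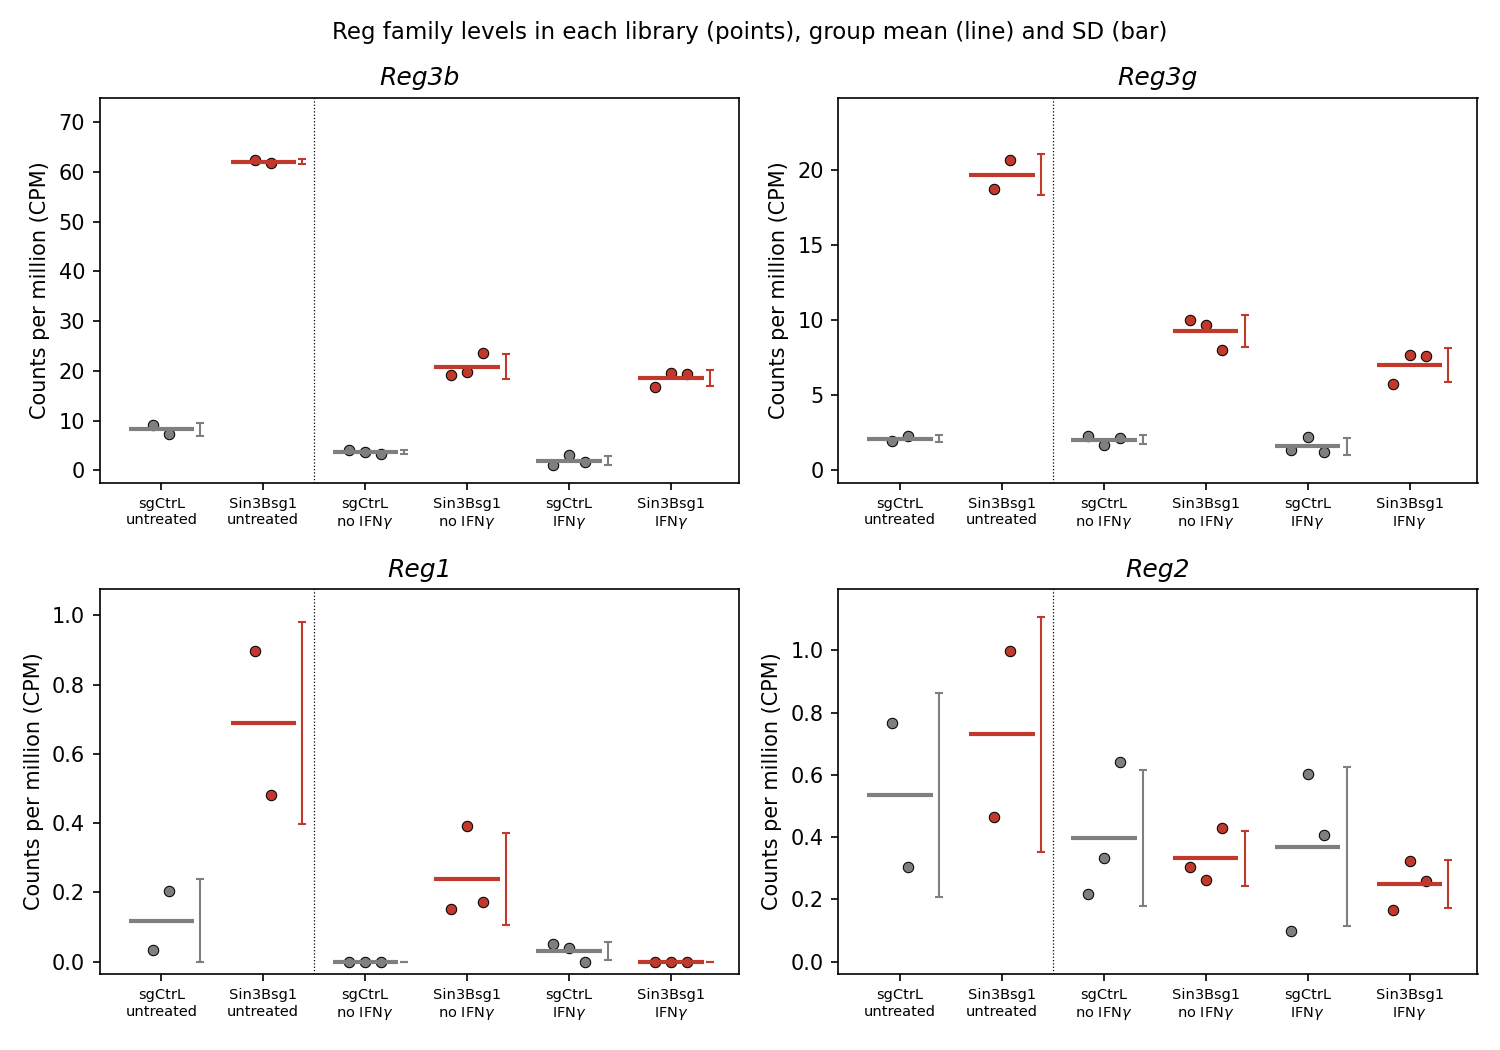
Levels of Reg3b, Reg3g, Reg1 and Reg2 in each of the 16 libraries (y axis, CPM, a separate scale for each gene) by group (x axis). Points are libraries, lines are group means, bars are SDs (n = 2 or 3), grey is sgCtrL, red is Sin3Bsg1 and the dotted line parts the 2 experiments. Every Sin3Bsg1 library lies above every sgCtrL library of its experiment for Reg3b and Reg3g, while the Reg2 groups overlap.

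Reg3b encodes pancreatitis-associated protein 1. In the untreated experiment, sgCtrL libraries held 275 and 217 Reg3b counts and Sin3Bsg1 libraries held 2018 and 1918. As CPM these were 9.17 and 7.33 against 62.4 and 61.7, so the groups stood far apart and the Sin3Bsg1 libraries nearly coincided. The means were 8.25 ± 1.30 and 62.0 ± 0.48 CPM (SD, n = 2), a fold change of 7.51 (log2 2.91, SE 0.08). On that scale Reg3b ranked 18 from the top of 14820 genes tested.

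Without IFNγ in the second experiment, Reg3b counts were 76, 86 and 60 in sgCtrL and 504, 454 and 550 in Sin3Bsg1 cells. The means were 3.63 ± 0.45 and 20.9 ± 2.43 CPM (SD, n = 3), a fold change of 5.74 (log2 2.52, SE 0.19). With IFNγ, counts were 23, 80 and 37 in sgCtrL and 399, 486 and 453 in Sin3Bsg1 cells. The means were then 1.94 ± 0.97 and 18.6 ± 1.66 CPM, a fold change of 9.22 (log2 3.20, SE 0.20), and 2.97 on the log2 scale without the sgCtrL library that stood apart. The lowest Sin3Bsg1 library of this experiment, at 16.7 CPM, lay above the highest sgCtrL library, at 4.10 CPM.

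Reg3g encodes a lectin that kills Gram-positive bacteria in the gut, and in these cells it went with Reg3b. The untreated sgCtrL libraries held 58 and 67 counts and the Sin3Bsg1 libraries 606 and 643. The means were 2.10 ± 0.23 and 19.7 ± 1.38 CPM (SD, n = 2), a fold change of 9.37 (log2 3.23, SE 0.13), which ranked 12 from the top of all genes tested. Reg3g thus had the larger fold of the pair and Reg3b the larger level.

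In the IFNγ experiment, Reg3g counts without IFNγ were 42, 41 and 40 in sgCtrL and 264, 223 and 187 in Sin3Bsg1 cells. The fold change was 4.58 (log2 2.19, SE 0.21), from 2.04 ± 0.29 to 9.26 ± 1.07 CPM (SD, n = 3). With IFNγ, counts were 27, 59 and 27 in sgCtrL and 137, 191 and 178 in Sin3Bsg1 cells, a fold change of 4.31 (log2 2.11, SE 0.21), from 1.60 ± 0.55 to 7.02 ± 1.13 CPM. The genotypes did not overlap in any of these settings. Without the sgCtrL library that stood apart, the log2 difference with IFNγ was 2.01.

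Reg1, a stone protein gene of acinar cells, was scarce. Untreated sgCtrL libraries held 1 and 6 counts and Sin3Bsg1 libraries 29 and 15, which is 0.118 ± 0.120 against 0.689 ± 0.293 CPM (SD, n = 2). The fold change was 5.72 (log2 2.52, SE 0.70), and the log2 value was 4.22 without the sgCtrL library that held 6 counts and 1.75 without the one that held 1. In the IFNγ experiment Reg1 failed the filter. It had no count in the 3 sgCtrL libraries without IFNγ and 4, 9 and 4 counts in the Sin3Bsg1 libraries without IFNγ, at least 1.6-fold higher when sgCtrL is set to 3 counts per library. That bound takes the Sin3Bsg1 mean as exact. With IFNγ, the sgCtrL libraries held 1, 1 and 0 counts and the Sin3Bsg1 libraries none, so no fold is given.

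Reg2, the neighbour and nearest relative of Reg1, showed no such pattern. Rounded counts were 23 and 9 in untreated sgCtrL and 15 and 31 in untreated Sin3Bsg1 libraries (log2 0.44, SE 0.53). Without IFNγ they were 4, 8 and 12 in sgCtrL and 8, 6 and 10 in Sin3Bsg1 cells (log2 -0.25, SE 0.58). With IFNγ they were 2, 16 and 9 against 4, 8 and 6 (log2 -0.60, SE 0.59, and -1.0 without the library that stood apart). The genotypes overlapped each time, and errors of this size leave room for a change in either direction.

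The other 3 members were at the limit of detection. Reg3a had 1 and 4 counts in the untreated Sin3Bsg1 libraries, 0, 1 and 2 in the Sin3Bsg1 libraries without IFNγ, 0, 0 and 1 in those with IFNγ, and none in any of the 8 sgCtrL libraries. Reg4 had a single count in each of 3 libraries, an untreated sgCtrL library and a Sin3Bsg1 library with and another without IFNγ. Reg3d had no count in all 16 libraries, which allows up to 0.0927 to 0.162 CPM depending on the library. These limits, taken as 3 counts, cover counting error only.

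Of the 7 members, 4 passed the filter in the untreated experiment, and 3 of these were called higher at an adjusted p under 0.05, beside 15.0% of all 14820 genes tested. Their libraries did not overlap between genotypes, with Sin3Bsg1 on top, as was so for 31.9% of all genes. In the IFNγ experiment 3 passed, and 2 were called higher in Sin3Bsg1 cells without IFNγ, beside 7.89% of 14913 genes, and with IFNγ, beside 8.62%. All Sin3Bsg1 libraries lay above all sgCtrL libraries for these 2, and for 18.3% of all genes without and 15.5% with IFNγ. Nothing is read from these counts, because the same contrasts led to the choice of the family.

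**Figure D2:**
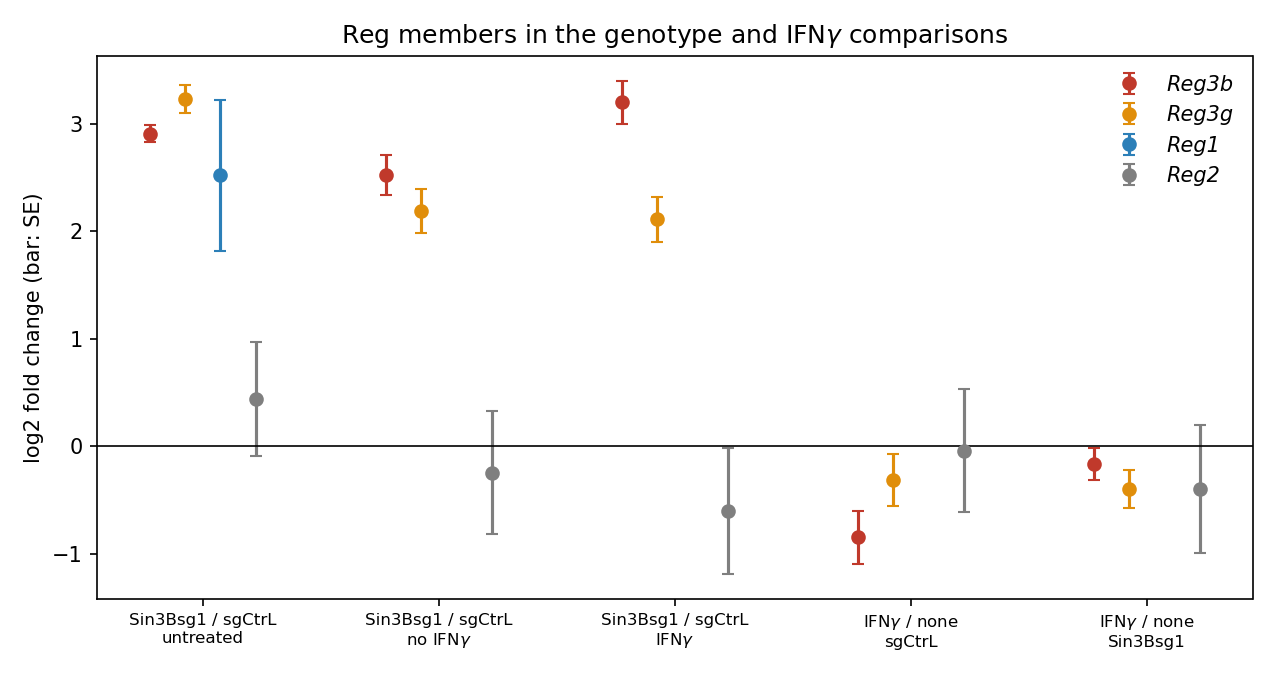
Log2 fold changes (y axis) of the Reg members that passed the filter on low counts, in 3 genotype and 2 IFNγ comparisons (x axis), from edgeR. Points are estimates and bars are SEs. Reg3b and Reg3g lie between 2.11 and 3.23 in the genotype comparisons, and none of the members lies above 0 in the IFNγ comparisons.

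The second experiment allows a comparison of cells with and without IFNγ within each genotype. In sgCtrL cells, Reg3b was lower with IFNγ (log2 -0.85, SE 0.25), with 1.14, 3.02 and 1.67 CPM against 4.10, 3.59 and 3.21 CPM without. All 3 IFNγ libraries lay below the 3 others, as 20.7% of all genes did, and the difference was -0.61 without the library that stood apart and -1.35 without the sgCtrL library with IFNγ numbered 2. In Sin3Bsg1 cells Reg3b overlapped between treatments, at 16.7, 19.6 and 19.4 CPM with and 19.2, 19.7 and 23.6 CPM without IFNγ (log2 -0.17, SE 0.15).

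Reg3g gave the opposite picture of overlap. In sgCtrL cells the treatments overlapped (log2 -0.32, SE 0.25, and -0.21 without the library that stood apart). In Sin3Bsg1 cells all IFNγ libraries, at 5.72, 7.71 and 7.64 CPM, lay below those without IFNγ, at 10.0, 9.70 and 8.04 CPM (log2 -0.40, SE 0.18), as 21.1% of all genes did. Reg1 fell out of sight in Sin3Bsg1 cells with IFNγ, from 4, 9 and 4 counts without it. It was at least 1.91-fold lower there when each IFNγ library is set to 3 counts and the mean without IFNγ is taken as exact. Reg2 differed by -0.04 (log2, SE 0.57, and 0.35 without the library that stood apart) in sgCtrL and -0.40 (SE 0.60) in Sin3Bsg1 cells.

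Of the 3 members tested for an IFNγ effect, 1 was called lower in sgCtrL cells (Reg3b, beside 14.5% of all genes). In Sin3Bsg1 cells edgeR called 0 and DESeq2 called 0, beside 12.3% of all genes called lower by edgeR, and 1 (Reg3g) had an unadjusted p under 0.05. The genotype difference itself was compared between treatments with an interaction term. Reg3b differed more between genotypes with IFNγ than without in the estimate (log2 0.68, SE 0.29). The Reg3g estimate was near 0 (log2 -0.09, SE 0.31, and -0.25 to 0.26 when each library was left out in turn). Reg2 had a wide error (log2 -0.36, SE 0.82, and -0.76 without the library that stood apart). The interaction was called for 0 of the 3 by edgeR and by DESeq2, beside 0.114% of all genes, with 1 (Reg3b) at an unadjusted p under 0.05. Without the sgCtrL library with IFNγ numbered 2, the Reg3b interaction was 1.19, and without the library that stood apart it was 0.44.

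Because the Reg3 genes resemble each other, their counts were also summed. The sum was 10.4 ± 1.07 CPM in untreated sgCtrL and 81.8 ± 0.97 CPM in untreated Sin3Bsg1 cells (SD, n = 2), a ratio of 7.9. Without IFNγ it was 5.67 ± 0.60 and 30.2 ± 1.40 CPM (n = 3), a ratio of 5.32, and with IFNγ 3.54 ± 1.49 and 25.6 ± 2.80 CPM, a ratio of 7.24. On the log2 scale the last ratio was 2.86, and 2.66 without the library that stood apart. With the Reg3 genes fitted as a single feature, the log2 differences were 2.98 (SE 0.06), 2.42 (SE 0.16) and 2.82 (SE 0.17). The genotype difference of the group as a whole does not depend on how reads were divided among the paralogs.

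Compared per length, Reg3b was the more abundant of the pair in 15 of the 16 libraries. In TPM (transcript counts per length, set to the same total in each library and computed here from the lengths in the tables), untreated Sin3Bsg1 cells had 163 Reg3b and 52.5 Reg3g, above 93.5% and 76.8% of all genes tested, and untreated sgCtrL cells had 21.7 and 5.59, above 54.8% and 31.2%. The Reg3b to Reg3g ratio was 4.67 and 3.19 in untreated sgCtrL and 3.28 and 2.94 in untreated Sin3Bsg1 libraries. Without IFNγ it was 1.48 to 2.07 in sgCtrL and 1.88 to 2.90 in Sin3Bsg1 cells, which overlap. With IFNγ it was 0.839 to 1.35 in sgCtrL and 2.51 to 2.87 in Sin3Bsg1 cells, which do not. The exception to the order was the sgCtrL library with IFNγ numbered 1, at 0.839, which is the library that stood apart.

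**Figure D3:**
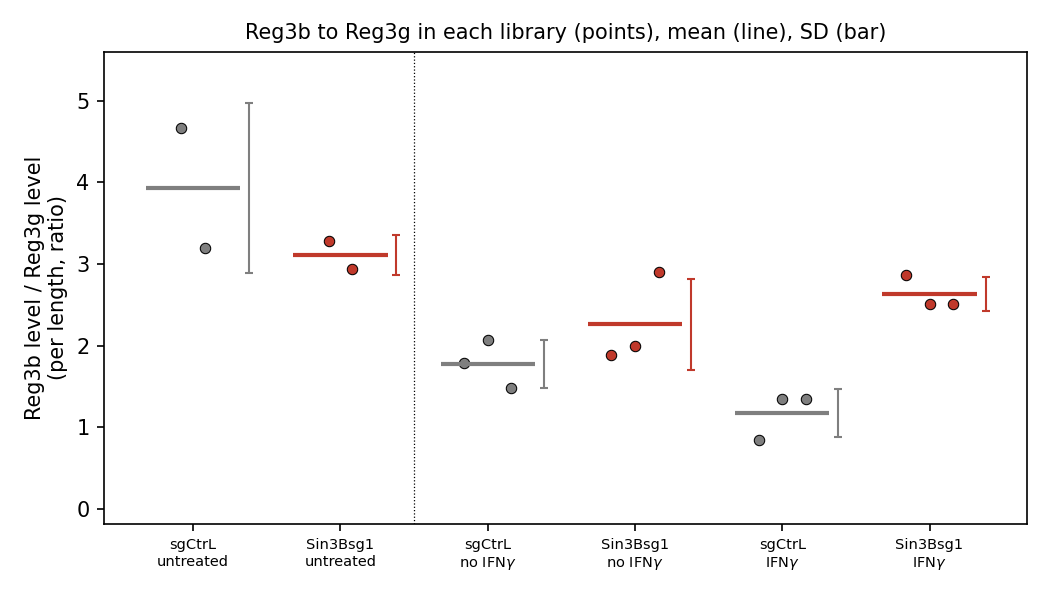
Ratio of the Reg3b level to the Reg3g level per gene length (y axis, no unit) in each library (points) by group (x axis), with group means (lines) and SDs (bars, n = 2 or 3). With IFNγ the 3 sgCtrL libraries lie at 0.839 to 1.35 and the 3 Sin3Bsg1 libraries at 2.51 to 2.87.

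Set side by side over all 6 groups, Reg3b was highest in untreated Sin3Bsg1 cells (62.0 CPM), followed by Sin3Bsg1 cells without (20.9) and with IFNγ (18.6), then untreated sgCtrL (8.25), sgCtrL without IFNγ (3.63) and sgCtrL with IFNγ (1.94). The neighbours in this order that overlapped were the Sin3Bsg1 groups without and with IFNγ. For Reg3g the order was the same, at 19.7, 9.26, 7.02, 2.10, 2.04 and 1.60 CPM, and the 3 sgCtrL groups overlapped. The untreated table and the IFNγ table came from separate experiments and were normalized apart, so the lower levels of the second were not tested. In the cells without IFNγ of the second experiment, Sin3Bsg1 Reg3b lay at 20.9 CPM where the untreated cells of the first had 62.0, while the sgCtrL groups had 3.63 and 8.25.

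The genes whose log2 CPM followed Reg3b most closely over the 12 libraries of the IFNγ experiment, among 12643 genes of at least 1 CPM on average, were Csrp2 (Pearson r = 0.984), Tmem176b (0.981), Plxdc2 (0.980), Anxa13 (0.972) and Krt20 (0.972). For Reg3g they were Tmem176b (0.988), Arhgap27 (0.985), Xylb (0.982), Nol4l (0.978) and Csrp2 (0.975), and Reg3b and Reg3g correlated with each other at 0.975. Reg2 followed Reg3b at -0.03 and Reg3g at -0.07. Reg2 held only 2.13 to 15.58 estimated counts in the 12 libraries, so counting error weighs on its correlations. The genes nearest to Reg2 were Pla2g4c (0.912), Ccdc138 (0.888), Snhg6 (0.881), Srek1 (0.877) and Gm13722 (0.873). The 12 points fall into 4 groups of shared genotype and treatment, so these are descriptions with no p. Plxdc2 went from a mean of 0.582 CPM in sgCtrL to 5.32 CPM in Sin3Bsg1 cells without IFNγ.

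The genes next to the family were examined to see whether the difference ran beyond it. Of the 3 nearest protein-coding genes on each side of the chromosome 6 cluster, 2 passed the filter, the adhesion gene Ctnna2 and Gcfc2. Their untreated genotype differences were -0.25 ± 0.16 and 0.11 ± 0.09 (log2, SE), and neither was called (edgeR, adjusted p = 0.265 and 0.411). Without IFNγ, Ctnna2 fell by 0.55 and Gcfc2 rose by 0.27 on the log2 scale (adjusted p = 0.0447 and 0.0435), and with IFNγ the differences were -0.25 and 0.18 (adjusted p = 0.387 and 0.164). Inside the cluster, Reg3b and Reg3g differed by 2.11 to 3.23 and Reg1 by 2.52 in untreated cells, while Reg3a and Reg3d were close to or at 0. Reg2 differed by 0.44 in untreated cells, -0.25 without IFNγ and -0.60 with IFNγ, and its genotypes overlapped each time. With SEs of 0.53 to 0.59, these values cannot show whether Reg2 shared the difference.

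The route known to control Reg3 genes was then examined through a list of 23 cytokine, receptor, JAK and STAT3 genes, which like the other lists was drawn up with earlier results of these data known. In untreated cells 19 of the 23 passed the filter, 4 rose and 12 fell in Sin3Bsg1 cells, with a median log2 difference of -0.17 beside 0.0033 over all genes. Of all genes, 15.0% were called higher and 15.7% lower. Il22ra1, the receptor subunit for IL-22, rose from 13.2 ± 1.96 to 35.1 ± 1.33 CPM (log2 1.41, SE 0.09, adjusted p = 1.26e-08, edgeR). Osmr, the oncostatin M receptor, fell from 77.7 ± 0.05 to 45.2 ± 1.43 CPM (log2 -0.78, SE 0.04, adjusted p = 2.86e-09). The cytokine gene Lif rose by 0.70 and the IL-6 receptor gene Il6ra fell by 0.66 (adjusted p = 7.23e-05 and 0.00891), and the 2 ligand genes Osm and Il22 had no count in any library.

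Stat3, which relays these signals, and Il6st, the shared receptor chain gp130, fell by 0.28 and 0.22 in untreated Sin3Bsg1 cells (adjusted p = 8.89e-07 and 0.000214). Socs3, a feedback target of STAT3, differed by -0.02 (adjusted p = 0.741). Extl3, proposed as a receptor for Reg proteins, fell by 0.21 (adjusted p = 0.000313). In the IFNγ experiment, Il22ra1 again rose in Sin3Bsg1 cells, by 0.83 without and 0.99 with IFNγ (adjusted p = 0.000258 and 6.51e-05), and Osmr again fell, by 0.34 and 0.44 (adjusted p = 8.77e-05 and 7.81e-06). Socs3 fell by 0.22 and 0.18 (adjusted p = 0.0042 and 0.0135). Stat3 differed by -0.01 and 0.11 (adjusted p = 0.855 and 0.0676), Il6st by -0.13 and -0.09 (adjusted p = 0.0596 and 0.181) and Extl3 by -0.05 and 0.06 (adjusted p = 0.474 and 0.391).

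Across the list, 20 of 23 passed the filter in the IFNγ experiment. Without IFNγ 2 rose and 3 fell in Sin3Bsg1 cells, and with IFNγ 1 rose and 4 fell, beside 7.89% and 8.62% of all genes higher and 9.33% and 7.9% lower. Jak2 rose by 0.29 without IFNγ (adjusted p = 0.000313), and Lifr, the LIF receptor, fell by 0.35 without and 0.32 with IFNγ (adjusted p = 6.55e-05 and 0.000189). Cebpb, an acute-phase transcription factor, fell by 1.07 in Sin3Bsg1 cells with IFNγ (adjusted p = 0.00615), and by 0.706 without the sgCtrL library that stood apart. IFNγ itself raised Stat3 by 0.24 in sgCtrL and 0.37 in Sin3Bsg1 cells (adjusted p = 0.000238 and 2.79e-06), and lowered Socs3 by 0.22 and 0.19 (adjusted p = 0.00202 and 0.0065).

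**Figure D4:**
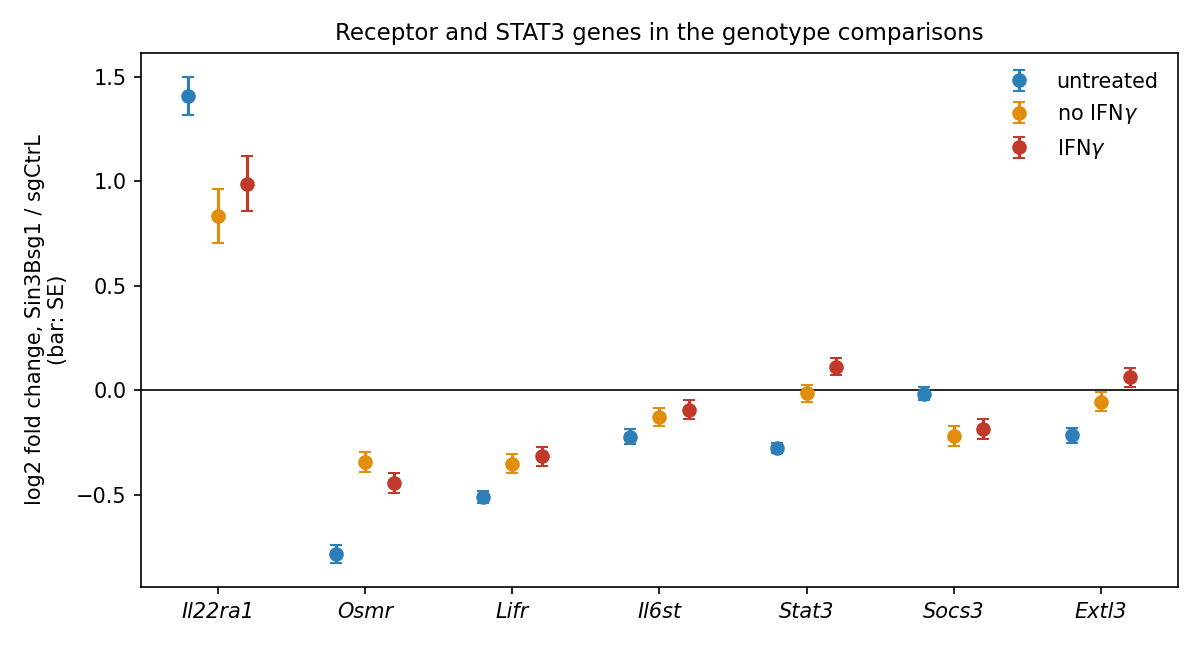
Log2 fold changes of 7 receptor and STAT3 genes (x axis) in Sin3Bsg1 against sgCtrL cells (y axis), untreated (blue), without IFNγ (orange) and with IFNγ (red), from edgeR, with SEs as bars. Il22ra1 lies at 0.83 to 1.41 and Osmr at -0.78 to -0.34, while Stat3 lies at -0.28 to 0.11.

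Genes that are often induced together with Reg3 genes in stressed or infected epithelium were listed as 24 acute-phase and mucosal defence genes. In untreated cells 9 passed the filter, of which 5 rose and 1 fell in Sin3Bsg1 cells, beside 15.0% and 15.7% of all genes, and the median log2 difference was 0.50. Cfb, complement factor B, rose from 3.40 ± 1.80 to 16.4 ± 1.57 CPM (log2 2.26, SE 0.21, adjusted p = 7.52e-07, edgeR). The log2 value of Cfb was 2.94 without the sgCtrL library numbered 1 and 1.81 without the one numbered 2. Lbp, the lipopolysaccharide-binding protein, rose by 2.09 and C3 rose by 1.06 (adjusted p = 5.63e-10 and 3.3e-05). Slpi, a secreted protease inhibitor, fell by 0.59 (adjusted p = 0.00349). In the same cells Reg3b and Reg3g differed by 2.91 and 3.23.

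In the IFNγ experiment 13 of the 24 passed, and 7 rose in Sin3Bsg1 cells both without IFNγ, where 2 fell, and with IFNγ, where 1 fell. Of all genes, 7.89% and 8.62% were higher in these comparisons and 9.33% and 7.9% lower. Cfb rose by 1.38 and 1.15 (adjusted p = 5.11e-10 and 1.06e-09), Lbp by 0.89 and 0.78 (adjusted p = 4.11e-08 and 1.92e-07) and Saa3, a serum amyloid gene, by 1.61 and 1.22 (adjusted p = 0.000175 and 0.00132). Steap4 rose by 0.81 without IFNγ (adjusted p = 4.26e-06), and Pigr, which carries IgA across epithelium, rose by 1.97 with IFNγ (adjusted p = 0.013). Lcn2, another gene of epithelial defence, was named after its values were seen and differed by 0.04 and -0.13 (adjusted p = 0.61 and 0.0735). IFNγ changed 11 of the 13 in each genotype, 3 upward and 8 downward, beside 15.7% and 14.5% of all genes in sgCtrL and 16.1% and 12.3% in Sin3Bsg1 cells, with Nos2 raised by 4.5 and 4.28 (adjusted p = 5.29e-15 and 2.66e-15) and Hp lowered (log2 -2.29 and -1.93, adjusted p = 2.17e-07 and 2.04e-06), listed for sgCtrL and Sin3Bsg1 cells in turn. The matching values of Reg3b were -0.85 and -0.17, and those of Reg3g -0.32 and -0.40.

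A list of 22 pancreatic stress and metaplasia genes covered what acinar cells switch on, together with Reg genes, when they are injured or turn ductal. In untreated cells 8 of 15 tested rose and 2 fell in Sin3Bsg1 cells, and in the IFNγ experiment 8 of 16 rose and 2 fell both without and with IFNγ. Of all genes, 15.0%, 7.89% and 8.62% rose in these comparisons and 15.7%, 9.33% and 7.9% fell. Clu, the chaperone clusterin, rose from 301 ± 8.67 to 1133 ± 22.8 CPM in untreated cells (log2 1.91, SE 0.02, adjusted p = 1.82e-16), and by 1.77 without and 1.90 with IFNγ (adjusted p = 7.79e-11 and 3.63e-11). Dmbt1, a secreted scavenger receptor of epithelia, rose by 1.12 in untreated cells and by 0.40 with IFNγ (adjusted p = 7.61e-15 and 6.84e-05). Tff3, a trefoil peptide gene, and Onecut1, a transcription factor of the developing pancreas, rose by 1.78 and 1.66 without IFNγ (adjusted p = 0.00267 and 0.00192). The 2 that fell in untreated cells were Sox4 and Spp1, and Spp1 was called higher in both settings of the IFNγ experiment. In that experiment the 2 that fell were Sox4 and Muc5ac, a gastric mucin of precursor lesions. Muc5ac fell by 1.5 without and 1.48 with IFNγ (adjusted p = 2.54e-05 and 0.00101). With IFNγ, 0 of these genes rose and 9 of 16 fell in each genotype, beside 15.7% and 16.1% of all genes higher and 14.5% and 12.3% lower. Among those that fell were Dmbt1 (log2 -1.08 and -1.12) and the osteopontin gene Spp1 (log2 -0.96 and -0.84, adjusted p = 1.88e-10, 1.01e-10, 1.54e-11 and 9.2e-11 in that order).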

How the data were processed

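RNA was sequenced from cultured KPC1199 cells. The authors deposited estimated counts per gene, which need not be whole. The methods of the study name HISAT2 against mm9 and featureCounts on uniquely mapped reads, whereas the submitters' processing notes name fastp, HISAT2, StringTie, DESeq2 and the build mm39, so the build and counter are uncertain. The tables give no coordinates. Places of genes are from GENCODE vM39 (GRCm39) and upstream sequences from RefSeq (GRCm38.p6). Control columns named for Lacz3 were taken as sgCtrL.

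Here the estimated counts were rounded to whole numbers and each table was fitted alone, over all its genes, with edgeR 4.0.16 (R 4.3.3), using filterByExpr by group, TMM scaling, the quasi-likelihood test and Benjamini-Hochberg adjustment with a threshold of 0.05. All 12 libraries of the IFNγ experiment shared one fit. Unless an SD is named, differences in log2 are fitted values. Features without a gene name held 0.311% to 0.708% of the counts and were kept in the library sizes. CPM used the TMM-scaled library sizes, and TPM used the lengths in the tables. Columns of group means in the tables were not used.

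The members and lists were chosen with earlier results of these data known. Named list genes were, in each described comparison, up to 4 past the threshold with the largest change and a mean of at least 1 CPM in a group, besides Stat3, Socs3, Il6st, Il22ra1, Osmr, Extl3, Sin3b, Irf1 and the neighbours of the chromosome 6 cluster. Some items that this rule or the labels name are not reported here. Lcn2 was named after its values were seen. Replicates differed by more than sampling noise in every pair. Alternatives were DESeq2 1.42.0, RLE size factors, library totals, no filter, a replicate block, fewer libraries and leaving out each library. The lists of cytokine and STAT3, acute-phase, stress, IFNγ response, acinar, ductal, islet, fibroblast and immune genes are reported with their counts.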

Additional observations from a re-analysis of the deposited data

Results flagged for a closer look

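Among the listed genes, Cd274, which encodes the checkpoint ligand PD-L1, is the gene whose response to IFNγ differed between the genotypes by the interaction term (log2 0.47, SE 0.08, adjusted p = 0.0454, edgeR). Cd274 rose from 18.6 to 171 CPM in sgCtrL cells (log2 3.21) and from 12.9 to 165 CPM in Sin3Bsg1 cells (log2 3.68), so the levels with IFNγ were close and those without differed. None of the Reg members tested was called for this difference, with Reg3b at 0.68 (SE 0.29) and 1 of 3 at an unadjusted p under 0.05. When each of the 12 libraries was left out in turn, 0 to 2 of the 14 listed IFNγ response genes were called for the interaction, and 0 were called in 10 of the 12 fits.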

How the results depend on the processing

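The log2 differences of Reg3b and Reg3g between genotypes stayed positive under every alternative run, from 2.42 to 3.71 for Reg3b and from 1.94 to 3.34 for Reg3g when each library was left out in turn. Of 299 values of single members, 6 moved by more than the spread between libraries, and none of those called changed sign. The summed Reg3 ratio in untreated cells, 2.98 on the log2 scale, ranged from 2.88 to 3.09 when each library was left out. Genes called between genotypes without IFNγ numbered 2568, and 3996 when only the libraries compared were fitted, and with IFNγ 2464 and 1500. The interaction was called for 17 genes, for 32 with DESeq2, for 110 with no filter, and for 1 to 33 when each library was left out. Scaling by library totals alone moved the share of calls that were higher with IFNγ from 52.0% to 34.7% in sgCtrL and from 56.6% to 33.7% in Sin3Bsg1 cells, and that of the interaction from 70.6% to 56.2%. The causes of these shifts were not tested. Libraries with the same replicate number were correlated in their deviations from the group means at -0.0368 to 0.134. With 2 or 3 libraries a group, these values cannot show whether a shared number marks a shared culture or batch. With a replicate block, 4710 genes were called in untreated cells in place of 4549, 2511 and 2388 between genotypes without and with IFNγ, 4400 and 4207 for IFNγ, and 13 for the interaction, and Reg3b differed by 2.91, 2.52 and 3.22. Among other named genes 87 of 2204 values lost their call, most often Mafa and Gbp5, then Prss2, Pdgfrb and Extl3. Depth limits Reg1, Reg2, Reg3a, Reg3d and Reg4, whose libraries held at most 31 counts.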

Other observations

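The ductal and epithelial markers moved mostly upward in Sin3Bsg1 cells. In untreated Sin3Bsg1 cells 11 of 13 tested rose and 1 fell, beside 15.0% and 15.7% of all genes. Without IFNγ 7 of 13 rose and with IFNγ 9 of 13, beside 7.89% and 8.62% of all genes. In these comparisons edgeR called none lower, beside 9.33% and 7.9% of all genes. The 7 became 4 without the sgCtrL or the Sin3Bsg1 library without IFNγ numbered 2. Krt7 rose by 1.66, 1.05 and 1.15 on the log2 scale (edgeR, adjusted p = 6.6e-13, 2.22e-07 and 1.21e-07), Cdh1 by 1.08, 0.92 and 1.0 (adjusted p = 4.49e-13, 1.25e-07 and 5.6e-08), and Hnf4a by 0.86, 0.96 and 1.18 (adjusted p = 8.01e-12, 1.36e-08 and 2.18e-09). Acinar markers did not move as a group. In untreated Sin3Bsg1 cells 2 of the 4 tested rose, the transcription factors Bhlha15 and Nr5a2, and 2 fell, the protease genes Cela1 and Prss2, all at or under 9.2 CPM on average, and beside 15.0% and 15.7% of all genes. With each untreated library left out in turn, 2 to 3 of these 4 calls were made, and 2 without either sgCtrL library or without the Sin3Bsg1 library numbered 2. Of the 5 fibroblast markers tested in untreated Sin3Bsg1 cells, 0 rose and 3 fell, beside 15.0% and 15.7% of all genes. Of the 6 tested in the IFNγ experiment, 2 rose, Fbln2 and Pdgfrb, and 2 fell, Pdgfra and Dpt, in both settings. Of all genes, 7.89% and 8.62% were higher there and 9.33% and 7.9% lower. Pdgfra fell by 1.78 in untreated Sin3Bsg1 cells and by 0.26 and 0.21 without and with IFNγ (adjusted p = 1.33e-12, 0.00036 and 0.0021). Fbln2 fell by 0.68 in untreated cells and rose by 0.39 and 0.66 in the other settings (adjusted p = 1.34e-10, 0.000147 and 1.01e-06). Pdgfrb fell by 1.14 and rose by 0.19 and 0.27 in the same order (adjusted p = 4.32e-06, 0.0338 and 0.00593).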
